A study of Mus musculus with 4 samples.

Results

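The NRF2, glutathione and thioredoxin defence genes are a list of 41 genes, taken by gene symbol from the 17013 genes of the deposited values. All 41 were found, and all 41 passed a filter on low values. They were compared between macrophages cultured with a high-fat-containing medium (Fat) and with the fat control medium (Con). The cells were wild-type mouse bone marrow-derived macrophages, grown from C57BL/6 males with M-CSF and seeded on porous inserts. Both media came from the same preparation of freeze-thawed abdominal fat, with Fat from its top layer and Con from its middle layer. Artificial necrotic bone fluid (aNBF), a freeze-thaw extract of bone and marrow, was given to every culture for 24 h. The Con cultures thus also received aNBF and the fat-poor layer of the fat preparation, and a culture without either was not sequenced here. There were 2 libraries per medium. The labels do not say whether replicates came from separate animals or cultures, so the p-values measure only the spread between these libraries, which may be technical.

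NRF2, encoded by Nfe2l2, is a transcription factor that KEAP1 marks for degradation until oxidants or electrophiles, lipid peroxidation products among them, modify KEAP1. NRF2 then pairs with a small MAF protein and binds antioxidant response elements, for which BACH1 competes, at genes of glutathione synthesis, thioredoxin recycling and the clearance of reactive carbonyls. Glutathione and thioredoxin carry the electrons that peroxidases and peroxiredoxins use to reduce peroxides, while superoxide dismutases turn superoxide into hydrogen peroxide. In macrophages these systems work alongside the oxidant burst, and SOD2, the mitochondrial dismutase, is also known as a gene that inflammatory signals raise.

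Of the 41 genes, 8 were higher and 4 lower in Fat by limma at a Benjamini-Hochberg adjusted p under 0.05. That is 29.3% of the list, where 9.0% of the 12470 genes tested were called, 3.99% higher and 5.0% lower. Those higher were Maff, Gclc, Sod1, Slc7a11, Srxn1, Abcc4, Gsr and Ugdh, with fold changes between 1.17 and 1.66. Those lower were Ephx1, Sod2, Prdx5 and Prdx4, at between 0.672 and 0.803 times the Con level. The median log2 fold change of the list was 0.08, against 0.01 for all genes tested, and was -0.00116 without Fat replicate 2. The Fat and Con libraries did not overlap in 31 of the 41 genes, 18 with Fat above and 13 with Fat below, where 55.6% of all tested genes did not overlap, 29.4% with Fat above and 26.2% with Fat below. Among the 9105 genes at least as abundant as Maff, the lowest of the list, 10.4% were called. Values are reads scaled to the depth of each library (CPM), and fold changes were taken on log2(CPM + 0.1). The calls were lost without limma's mean-variance trend, where limma called 0 of the 41 genes and 17 had an unadjusted p under 0.05. In that setting 19 of all genes tested were called higher and 12 lower. All tested genes were not counted at an unadjusted p under 0.05, here or for the groups below. By edgeR's quasi-likelihood test on recovered reads, 6 were called higher and 4 lower, where 490 and 648 of the 12470 genes tested were called. Without Fat replicate 2, limma called 2 higher and 3 lower, and without Con replicate 2 or Fat replicate 1 it called 5 higher and 4 lower.

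**Figure D1:**
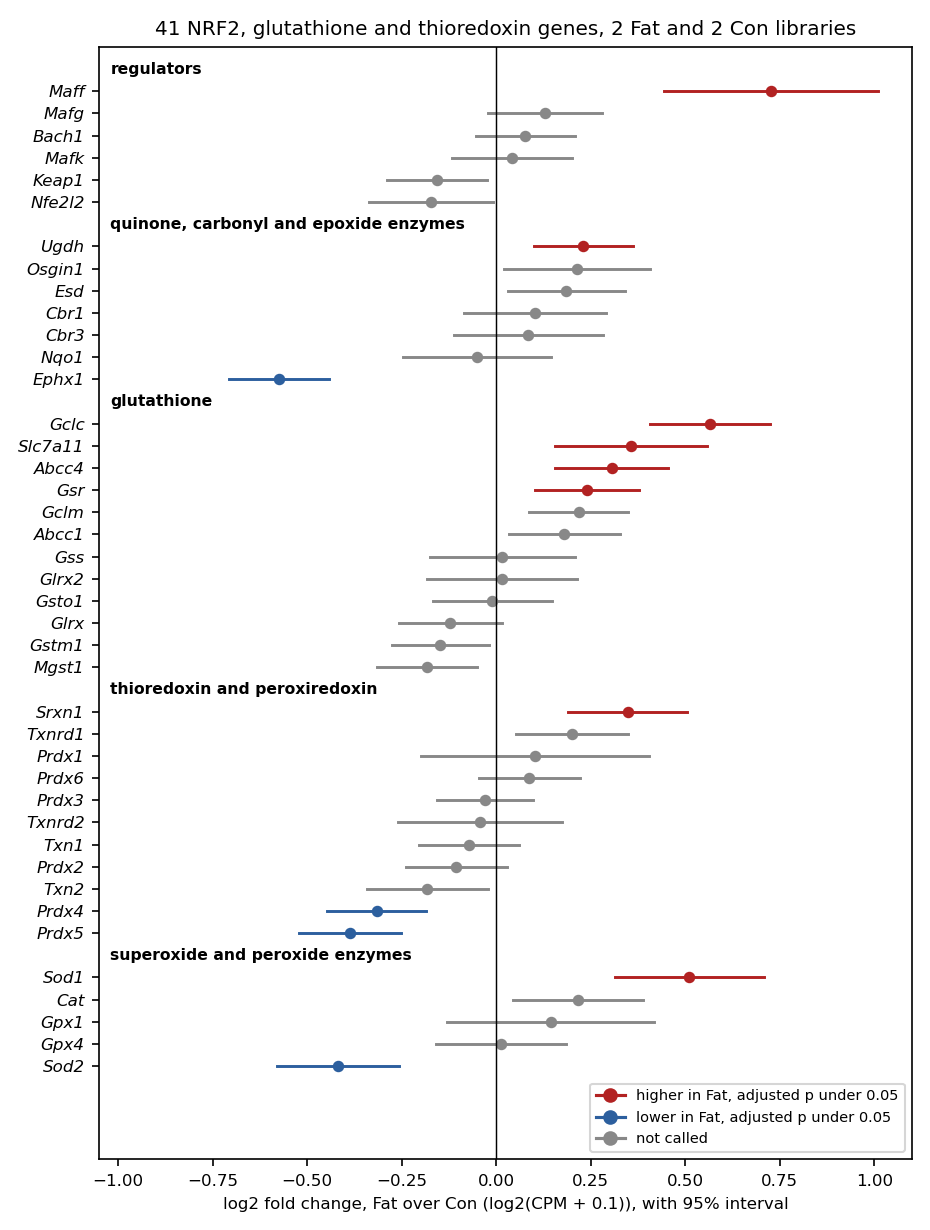
Log2 fold change of Fat over Con for each of the 41 genes (horizontal axis, log2(CPM + 0.1) scale), grouped by role and ordered within a group, with points at the estimate and bars at limma's 95% interval. Red genes were called higher (8), blue genes lower (4) and grey genes not called (29), and both directions occur in 3 of the 5 groups' calls, where Ugdh stands against Ephx1, Srxn1 against Prdx4 and Prdx5, and Sod1 against Sod2.

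The libraries held between 33573852 and 40785872 reads on the listed genes, so that a single read was worth 0.0244 to 0.0295 CPM, and the lowest gene of the list, Maff, had at least 189 reads in each library. Such figures cover counting error only. The macrophage genes Csf1r, Cd68, Lyz2, Itgam, Mrc1 and Adgre1 (listed as Emr1) were abundant in each library, the lowest value being 349 CPM for Mrc1 in Fat replicate 2. The 10 macrophage markers summed to 34569 to 36628 CPM in Con and 27507 to 29109 CPM in Fat, most of it Lyz2. Of the 10, Mertk and Fcgr1 were called lower (log2 change -0.31, limma adjusted p = 0.0289 and log2 change -0.88, limma adjusted p = 0.0123). In bulk RNA, fewer cells of a type and less RNA per cell cannot be told apart. Of 10 adipocyte markers, 9 had at most 3 reads in each Con library. These 9 summed to 5 and 6 reads in the Con libraries and 172 and 116 in the Fat libraries, and Adipoq, Lep, Pck1, Cidea and Adrb3 were at 0 in both Con libraries. Cidec had 0 and 2 reads in the Con libraries and 67 and 47 in the Fat libraries. It passed the filter on low values only through the Fat libraries. Its call as higher (log2 change 3.63, limma adjusted p = 0.0044) is therefore not an independent result. The size of that change depends on the 0.1 CPM added before the logarithm. The others of the 9 were too low to be tested. The remaining adipocyte marker, Lipe, was at 16.3 to 20.1 CPM. Fibroblast markers summed to 614 to 638 CPM in Con and 512 to 656 in Fat, most of it Col1a1 and Col1a2, and Dcn among them was called lower (log2 change -0.82, limma adjusted p = 0.0358). The 8 neutrophil markers listed summed to 367 to 417 and 358 to 359. Endothelial markers summed to 4.66 to 6.55 CPM in Con and 6.89 to 7.59 in Fat, T cell markers to 13.7 to 16.6 and 10.6 to 10.8, and B cell markers to 22.8 to 23.8 and 18.2 to 22.0. Erythroid markers had 0 to 2 reads in each library. The part of these cells' RNA in the results on the 41 genes was not tested.

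Per gene length, in transcripts scaled to library depth (TPM), the list spanned from Prdx1 to Maff. Prdx1, a cytosolic peroxiredoxin that reduces hydrogen peroxide, was at 13789 and 14918 TPM in the Con libraries and 15626 and 15888 TPM in the Fat libraries. By mean TPM it stood at rank 6 of all 17013 genes. The next levels belonged to Prdx5 (1296 to 1735 TPM), Gpx1 (1293 to 1751 TPM) and Cat (1235 to 1540.3 TPM), whose ranges overlapped one another. At the lower end were Abcc4, Glrx2 and Maff, the last at 7.13 and 6.01 TPM in the Con libraries and 10.7 and 11.6 TPM in the Fat libraries. Nqo1, often used as a reporter of NRF2 activity, stood near the lower end too, at 24.9 to 27.1 TPM. Together the 41 genes took 1.87% and 1.93% of the reads in Con and 2.0% and 2.07% in Fat.

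**Figure D2:**
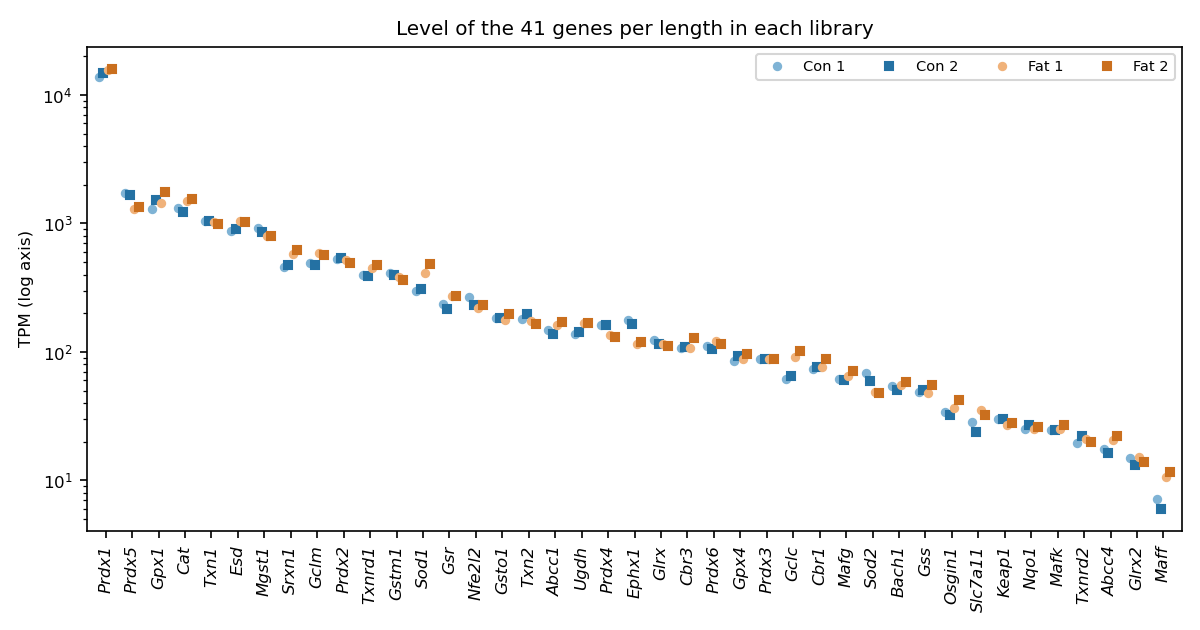
TPM (vertical log axis) of the 41 genes in each of the 4 libraries, ordered by mean level from left to right, with blue symbols for Con and orange for Fat. Prdx1 stands above all others in every library, at 13789 to 15888 TPM, and Maff is lowest at 6.01 to 11.6 TPM.

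Because NRF2 and small MAF proteins bind a short DNA element, the RefSeq promoter windows of the list were searched for its core, TGACNNNGC, on both strands (GCNNNGTCA when read on the gene's strand in reverse). A window ran from 250 bases before to 50 bases after a transcription start. Windows matched by symbol were found for 37 of the 41 genes, without Gclc, Gsr, Abcc1 and Prdx6, and 12 of the 37 held the core in at least 1 window, which was 32.4% against 17.4% of the 9348 tested genes with a window. It was present for 5 of the 6 genes called higher that had a window (Maff, Sod1, Srxn1, Abcc4 and Ugdh), for 0 of the 4 called lower, and for 7 of the 27 not called. The calls of Maff, Srxn1, Abcc4 and Ugdh each depended on single libraries, as given below, so this split is not firm. The list was also drawn up around NRF2, so its share with the core is not an independent result. Across all tested genes the shares were 17.7% of those called higher, 16.7% of those called lower and 17.4% of the rest. The first 4 letters of the core also begin the AP-1 site TGACTCA. A match says only that these letters are in the window. The stretches around the match are shown for the 4 genes with a match and the largest rises, 5′ to 3′ on the gene's strand, with the match in capitals (RefSeq sequence, build GRCm38.p6, where the authors' processing notes name GRCm39).
Maff: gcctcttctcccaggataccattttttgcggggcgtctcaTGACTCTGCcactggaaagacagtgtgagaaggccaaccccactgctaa
Sod1: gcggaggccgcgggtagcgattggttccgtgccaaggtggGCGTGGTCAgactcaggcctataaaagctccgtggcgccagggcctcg
Srxn1: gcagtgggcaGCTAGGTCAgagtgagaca
Abcc4: gccccgagagGCGGGGTCAgggcgggccg
The Maff stretch is chr15:79346469-79346557, plus strand, and its match lies 112 to 104 bases before a start of the gene, outside annotated exons. The Sod1 stretch is chr16:90220666-90220753, plus strand, with the match 56 to 48 bases before its start and outside annotated exons. The Srxn1 stretch, chr2:152105542-152105570, plus strand, lies within an exon of Srxn1, with the match beginning 28 bases after the start. The Abcc4 stretch, chr14:118706226-118706254, minus strand, has its match 25 to 17 bases before 1 of the gene's starts, inside the longer RefSeq gene model and outside GENCODE exons.

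Among the 6 regulators, Maff was the gene called. Maff encodes a small MAF protein, a DNA-binding partner of NRF2 and of BACH1 that has no activation domain of its own. It was at 5.87 and 5.04 CPM in the Con libraries and 8.71 and 9.44 CPM in the Fat libraries, so both Fat libraries lay above both Con libraries, and it rose 1.66-fold (0.73 ± 0.12 on the log2 scale, estimate ± standard error, with limma adjusted p = 0.0144). Without Fat replicate 2 its adjusted p was 0.0539. The other small MAF genes did not pass the test, with Mafg at 45.8 ± 0.0197 CPM in Con and 50.2 ± 3.01 CPM in Fat (SD, n = 2 each) and Mafk at 32.2 ± 0.637 CPM in Con and 33.2 ± 1.70 CPM in Fat (SD, n = 2 each). Nfe2l2 itself was at 302 and 269 CPM in the Con libraries and 246 and 259 CPM in the Fat libraries. Both Fat libraries lay below both Con libraries, with a log2 change of -0.17 (95% interval -0.34 to -0.01) that was not called (limma adjusted p = 0.184). Keap1, the adaptor that brings NRF2 to its ubiquitin ligase, was at 61.4 and 62.5 CPM in the Con libraries and 54.6 and 56.7 CPM in the Fat libraries (log2 change -0.16, limma adjusted p = 0.144). Bach1, the repressor, was at 145 and 139 CPM in the Con libraries and 146 and 154 CPM in the Fat libraries (log2 change 0.08, limma adjusted p = 0.46). Transcript levels do not report the amount of NRF2 protein, which KEAP1 sets after translation.

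In a wider list of 104 further genes of these pathways, 102 were listed, 12 of these were too low to be tested, and of the 90 tested 8 were called higher and 2 lower. That is 11.1% of those tested, close to the 9.0% of all genes, and their median log2 fold change was -0.00751. None of the 7 further regulators tested was called by limma, at adjusted p-values between 0.175 and 0.976, and edgeR called 0. Of the 7, Cul3 had an unadjusted limma p under 0.05. Among them Sqstm1, the autophagy receptor that can sequester KEAP1, was at 644 and 610.3 CPM in the Con libraries and 642 and 654 CPM in the Fat libraries, and its libraries overlapped. Cul3, the scaffold of the KEAP1 ligase, was at 104 and 104 CPM in the Con libraries and 115 and 112 CPM in the Fat libraries (log2 change 0.13, limma adjusted p = 0.175).

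The 12 glutathione genes, which cover its synthesis, recycling, use and export, held 4 of the 8 genes called higher, and limma called 0 of the 12 lower, with 2 lower at an unadjusted p under 0.05 and 0 called lower by edgeR. Gclc, the catalytic subunit of glutamate-cysteine ligase and the rate-limiting enzyme of glutathione synthesis, was at 97.0 and 103 CPM in the Con libraries and 141 and 156 CPM in the Fat libraries. It rose 1.48-fold (0.57 ± 0.07 on the log2 scale, estimate ± standard error, with limma adjusted p = 0.00514), and the call held with each library left out, at adjusted p-values of at most 0.0108. Its modifier subunit Gclm was at 468 and 460.5 CPM in the Con libraries and 547 and 534 CPM in the Fat libraries. Both Fat libraries lay above both Con libraries, but the difference of 0.22 (standard error 0.06) narrowly missed the threshold (limma adjusted p = 0.0552). DESeq2 on the recovered reads called Gclm higher (adjusted p = 0.0283), as did limma with the replicate number as a block (0.0148). It was not called by edgeR (0.066), or by limma with the TPM values (0.0558), after median ratio rescaling (0.0693) or with no filter (0.0832). Gss, glutathione synthetase, which completes the tripeptide, was at 43.6 and 46.1 CPM in the Con libraries and 42.1 and 48.9 CPM in the Fat libraries, with overlapping libraries (log2 change 0.02, limma adjusted p = 0.933). The ratio of Gclm to Gclc in TPM was 7.97 and 7.36 in the Con libraries and 6.42 and 5.65 in the Fat libraries.

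Slc7a11 encodes the cystine importer xCT, which supplies the cysteine for glutathione. It was at 119.7 and 102 CPM in the Con libraries and 148 and 135 CPM in the Fat libraries and rose 1.28-fold (0.36 ± 0.09 on the log2 scale, estimate ± standard error, with limma adjusted p = 0.0451). Slc3a2, the heavy chain that pairs with it, was among the wider list and was at 248 and 256 CPM in the Con libraries and 257 and 254 CPM in the Fat libraries, with overlapping libraries (log2 change 0.02, limma adjusted p = 0.87). Gsr, glutathione reductase, which regenerates glutathione from its oxidised form, was at 290.0 and 269 CPM in the Con libraries and 330.3 and 330.0 CPM in the Fat libraries. It rose 1.18-fold (0.24 ± 0.06 on the log2 scale, estimate ± standard error, with limma adjusted p = 0.0473). Abcc4, a transporter of the multidrug resistance family that exports organic anions, was at 47.3 and 45.1 CPM in the Con libraries and 55.1 and 59.1 CPM in the Fat libraries and rose 1.24-fold (0.31 ± 0.06 on the log2 scale, estimate ± standard error, with limma adjusted p = 0.0289). Its relative Abcc1, which exports glutathione and its conjugates, was at 405 and 381 CPM in the Con libraries and 431 and 459.5 CPM in the Fat libraries and was not called (log2 change 0.18, limma adjusted p = 0.131). The calls of Slc7a11, Gsr and Abcc4 depended on single libraries and on the processing. With the TPM values the adjusted p was 0.0832 for Slc7a11, 0.0595 for Gsr and 0.058 for Abcc4. With no filter or a mean of at least 5 CPM it was 0.0576 or 0.054 for Slc7a11 and 0.0648 or 0.0513 for Gsr, and Gsr was also lost by edgeR (0.0574) and after median ratio rescaling (0.0554). Without Con replicate 2 the adjusted p was 0.0926 for Slc7a11, 0.131 for Gsr and 0.0736 for Abcc4. Without Fat replicate 2 it was 0.051, 0.177 and 0.157 for these genes, and without Fat replicate 1 it was 0.127 for Slc7a11 and 0.128 for Gsr.

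Of the 41 genes, the 5 glutathione transferases and glutaredoxins did not pass the test by limma or edgeR. The microsomal transferase Mgst1 was at 398 and 377 CPM in the Con libraries and 340.2 and 342 CPM in the Fat libraries, with both Fat libraries below Con (log2 change -0.18, limma adjusted p = 0.0949). Gstm1, a cytosolic transferase, lay in the same order (log2 change -0.15, limma adjusted p = 0.152), and 41.1% of its sequence in stretches of 75 bases is also found in other genes, so its reads are uncertain. Gsto1, a transferase of the omega class, and the glutaredoxins Glrx and Glrx2 changed by -0.01, -0.12 and 0.02 on the log2 scale, without passing the test (adjusted p = 0.954, 0.262 and 0.94). For Gsto1 the 95% interval ran from -0.17 to 0.15. Of the 30 further glutathione genes tested, 3 were called higher and 1 lower. Gsta4, a transferase with high activity towards 4-hydroxynonenal, an aldehyde from lipid peroxidation, was at 1.21 and 1.04 CPM in the Con libraries and 3.78 and 3.78 CPM in the Fat libraries (1.67 ± 0.17 on the log2 scale, estimate ± standard error, with limma adjusted p = 0.00373). Mgst2, a microsomal transferase that can also make leukotriene C4, was at 8.58 and 10.3 CPM in the Con libraries and 16.1 and 16.4 CPM in the Fat libraries (log2 change 0.79, limma adjusted p = 0.00747). Oplah, which returns 5-oxoproline to glutamate in the glutathione cycle, was at 5.66 and 4.85 CPM in the Con libraries and 9.14 and 10.7 CPM in the Fat libraries (log2 change 0.90, limma adjusted p = 0.00886). Lap3, a leucine aminopeptidase that can split the cysteinylglycine left by glutathione breakdown, fell from 112 and 116 CPM to 91.3 and 74.7 CPM (log2 change -0.46, limma adjusted p = 0.0242, and 0.0562 without Fat replicate 2).

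**Figure D3:**
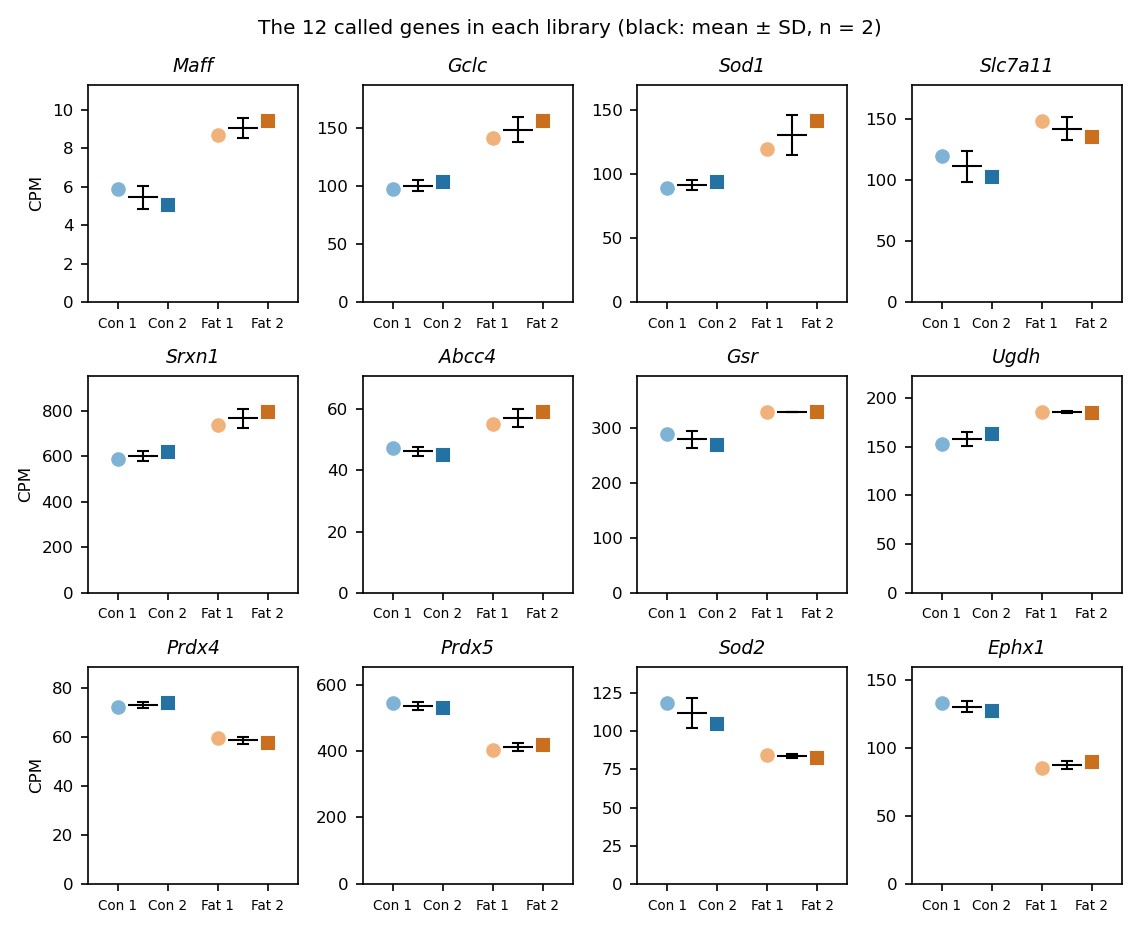
CPM (vertical axes, each from 0) of the 12 called genes in each of the 4 libraries, with blue for Con, orange for Fat and black bars at the mean ± SD of 2 libraries. Fat and Con do not overlap in any panel, with Fat above in the upper 8 panels (Maff 8.71 and 9.44 against 5.87 and 5.04 CPM) and below in the lower 4 (Ephx1 85.8 and 89.6 against 134 and 128 CPM). The genes were chosen by the test on these same libraries, and 55.6% of all tested genes do not overlap either.

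The 11 thioredoxin and peroxiredoxin genes were split, with 1 called higher and 2 lower. Srxn1, sulfiredoxin, reduces peroxiredoxins whose active cysteine has been over-oxidised. It was at 587 and 617 CPM in the Con libraries and 737 and 795 CPM in the Fat libraries and rose 1.27-fold (0.35 ± 0.07 on the log2 scale, estimate ± standard error, with limma adjusted p = 0.0223). Without Con replicate 1 its adjusted p was 0.0515, and without Fat replicate 2 it was 0.115. Txnrd1, the cytosolic thioredoxin reductase, was at 724 and 736 CPM in the Con libraries and 815 and 864 CPM in the Fat libraries. Its Fat libraries lay above its Con libraries, and the difference was not called (0.20 ± 0.06 on the log2 scale, estimate ± standard error, with limma adjusted p = 0.103). Its substrate Txn1 was at 505 and 508 CPM in the Con libraries and 490.1 and 473 CPM in the Fat libraries, with Fat below Con (log2 change -0.07, limma adjusted p = 0.495, 95% interval -0.20 to 0.06). The ratio of Txnrd1 to Txn1 in TPM was 0.375 and 0.379 in the Con libraries and 0.435 and 0.477 in the Fat libraries. In TPM too, Txnrd1 lay higher and Txn1 lower in each Fat library than in each Con library. The ratios therefore could not overlap, and as neither gene was called, their separation is not a further result. The mitochondrial pair Txn2 and Txnrd2 was not called, at log2 changes of -0.18 and -0.04 (limma adjusted p = 0.156 and 0.827).

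Of the 6 peroxiredoxins, Prdx4 and Prdx5 fell. Prdx5, an atypical peroxiredoxin of mitochondria, peroxisomes and cytosol, was at 546 and 529 CPM in the Con libraries and 402 and 419.7 CPM in the Fat libraries (-0.39 ± 0.06 on the log2 scale, estimate ± standard error, with limma adjusted p = 0.0102), and the call held with each library left out. Of its exonic bases, 28.3% overlap Trmt112 on the opposite strand. Trmt112 was at 4.90 to 5.54 CPM and was not called (log2 change -0.09, limma adjusted p = 0.722). Ccdc88b, the other gene that shares Prdx5 stretches, was at 69.3 and 63.4 CPM in the Con libraries and 52.2 and 63.1 CPM in the Fat libraries (log2 change -0.21, limma adjusted p = 0.238), with both Fat libraries below Con. Prdx4, the peroxiredoxin of the endoplasmic reticulum, was at 72.3 and 74.1 CPM in the Con libraries and 59.8 and 57.7 CPM in the Fat libraries (-0.32 ± 0.06 on the log2 scale, estimate ± standard error, with limma adjusted p = 0.017), and without Fat replicate 2 its adjusted p was 0.0842. Prdx1 was at 8930.0 and 9851 CPM in the Con libraries and 9990.2 and 10167 CPM in the Fat libraries (log2 change 0.10, limma adjusted p = 0.677). Its interval of -0.20 to 0.41 was wide on the log2 scale, and 22.1% of its stretches are found in other genes. Prdx2, Prdx3 and Prdx6 were not called, with log2 changes of -0.11, -0.03 and 0.09 (limma adjusted p = 0.318, 0.794 and 0.404), and 26.6% of the Prdx2 stretches are found in other genes. Without Prdx1, the other 5 peroxiredoxins summed to 1012 to 1021 CPM in Con and 865 to 868 CPM in Fat. Prdx5 alone had a mean of 537 CPM in Con and 411 CPM in Fat. The separation of these sums thus follows largely from that called gene and is not a further result. With Prdx1, the 6 summed to 9951 to 10864 CPM in Con and 10858 to 11032 CPM in Fat, so the sums with it overlapped. Of the 14 further thioredoxin genes, limma called 1 higher and 0 lower, with 4 lower at an unadjusted p under 0.05, and edgeR and DESeq2 each called 1 higher and 1 lower. Txnip, which binds thioredoxin and limits its activity, was at 618 and 643 CPM in the Con libraries and 848 and 870.2 CPM in the Fat libraries (0.45 ± 0.06 on the log2 scale, estimate ± standard error, with limma adjusted p = 0.00763).

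The dismutases moved in opposite directions. Sod1, the copper-zinc enzyme of the cytosol, was at 88.7 and 94.0 CPM in the Con libraries and 119.6 and 142 CPM in the Fat libraries and rose 1.43-fold (0.51 ± 0.08 on the log2 scale, estimate ± standard error, with limma adjusted p = 0.014). Sod2, the manganese enzyme of mitochondria, was at 119 and 105 CPM in the Con libraries and 84.4 and 82.6 CPM in the Fat libraries and fell to 0.749 times its Con level (-0.42 ± 0.07 on the log2 scale, estimate ± standard error, with limma adjusted p = 0.0144). Both calls held with each library left out, at adjusted p-values of at most 0.0293 and 0.0452. The ratio of Sod1 to Sod2 in TPM was 4.41 and 5.28 in the Con libraries and 8.36 and 10.1 in the Fat libraries. These ratios could not overlap, because Sod1 lay higher and Sod2 lower in each Fat library than in each Con library. Their separation is therefore not a further result. Of the Sod1 stretches, 63.2% are also found in the pseudogenes Gm8566 and Gm8238, neither of which is among the listed genes, so reads could be lost or shared in a way that cannot be checked here. Ccs, the chaperone that loads copper onto SOD1, was at 26.8 and 26.8 CPM in the Con libraries and 27.2 and 27.5 CPM in the Fat libraries (log2 change 0.03, limma adjusted p = 0.826).

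The peroxide-removing enzymes Cat, Gpx1 and Gpx4 were not called by limma or edgeR. Cat, catalase, which breaks down hydrogen peroxide in peroxisomes, was at 1544 and 1468 CPM in the Con libraries and 1725 and 1775 CPM in the Fat libraries. Both Fat libraries lay above both Con libraries (0.22 ± 0.07 on the log2 scale, estimate ± standard error, with limma adjusted p = 0.123), and DESeq2 on the recovered reads called it higher (adjusted p = 0.0313). Gpx1, the cytosolic glutathione peroxidase, was at 619 and 741 CPM in the Con libraries and 677 and 828 CPM in the Fat libraries, and the libraries overlapped (log2 change 0.14, limma adjusted p = 0.507). Gpx4, the peroxidase that reduces lipid hydroperoxides in membranes and restrains ferroptosis, was at 59.7 and 66.5 CPM in the Con libraries and 61.1 and 66.1 CPM in the Fat libraries. Its libraries overlapped too, and the 95% interval of its log2 fold change ran from -0.16 to 0.18 (adjusted p = 0.945). Of its stretches, 71.9% are found in other genes, so its reads are uncertain. A further 7 genes related to superoxide and peroxide were tested, Sod3, Ccs, Park7 and Aifm2 among them, so not all are peroxidases. Of the 7, the secreted peroxidase Gpx3 was called lower, at 71.7 and 82.8 CPM in the Con libraries and 56.6 and 61.9 CPM in the Fat libraries (log2 change -0.38, limma adjusted p = 0.032). Without Con replicate 2 or Fat replicate 1 the adjusted p of Gpx3 was 0.0704 or 0.0897.

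The 7 quinone, carbonyl and epoxide enzymes held the largest fall of the list. Ephx1, the microsomal epoxide hydrolase, was at 134 and 128 CPM in the Con libraries and 85.8 and 89.6 CPM in the Fat libraries and fell to 0.672 times its Con level (-0.57 ± 0.06 on the log2 scale, estimate ± standard error, with limma adjusted p = 0.00339). The call held with each library left out, at adjusted p-values of at most 0.00371. Ugdh, which oxidises UDP-glucose to the UDP-glucuronate used in conjugation, was at 153 and 163 CPM in the Con libraries and 186 and 184 CPM in the Fat libraries (0.23 ± 0.06 on the log2 scale, estimate ± standard error, with limma adjusted p = 0.0467). Leaving out a single library other than Con replicate 2 ended the call of Ugdh, at adjusted p-values of 0.168, 0.138 and 0.167 without Con replicate 1, Fat replicate 1 and Fat replicate 2. It was also lost by edgeR (adjusted p = 0.0511), after median ratio rescaling (0.0532), with no filter (0.0597) and with a mean of at least 5 CPM (0.0508). Nqo1, the quinone reductase, was at 17.7 and 19.6 CPM in the Con libraries and 17.6 and 18.3 CPM in the Fat libraries. Its libraries overlapped, and the 95% interval of its log2 fold change ran from -0.25 to 0.14 (adjusted p = 0.763).

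Osgin1, an oxidative stress-induced growth inhibitor, was at 30.3 and 29.6 CPM in the Con libraries and 32.3 and 37.4 CPM in the Fat libraries, with Fat above Con but not called (log2 change 0.21, limma adjusted p = 0.165). Esd, the hydrolase that finishes the glutathione-dependent removal of formaldehyde, lay in the same order, at 842 and 900.3 CPM in the Con libraries and 994 and 988 CPM in the Fat libraries (log2 change 0.19, limma adjusted p = 0.138). Of its stretches, 30.6% are found in other genes. The carbonyl reductases Cbr1 and Cbr3 had overlapping libraries, with log2 changes of 0.10 and 0.09 (limma adjusted p = 0.491 and 0.592). The 15 further genes tested in this group also held Hmox1, Blvrb, Fth1 and Ftl1, genes of heme and iron handling. Of the 15, 4 were called higher, Hmox1 among them, and 0 lower by limma, with 0 of those lower at an unadjusted p under 0.05 and 0 lower by edgeR. Akr1b8, an aldo-keto reductase, was at 392 and 423 CPM in the Con libraries and 876 and 926 CPM in the Fat libraries (1.14 ± 0.07 on the log2 scale, estimate ± standard error, with limma adjusted p = 0.000632). Hmox1, heme oxygenase 1, was at 1242 and 1384 CPM in the Con libraries and 2544 and 2518 CPM in the Fat libraries. It rose 1.93-fold (log2 change 0.95, limma adjusted p = 0.00286). Ptgr1, which reduces reactive enals and prostaglandins, was at 196 and 184 CPM in the Con libraries and 266 and 286 CPM in the Fat libraries (log2 change 0.53, limma adjusted p = 0.00478). Akr1b3, aldose reductase, was at 41.2 and 44.1 CPM in the Con libraries and 65.5 and 56.0 CPM in the Fat libraries (log2 change 0.51, limma adjusted p = 0.0145), and 97.3% of its stretches are found in other genes. The ferritin genes Fth1 and Ftl1 had log2 changes of 0.04 and 0.14 and were not called (limma adjusted p = 0.89 and 0.46), and all Ftl1 stretches (100%) are found in other genes.

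**Figure D4:**
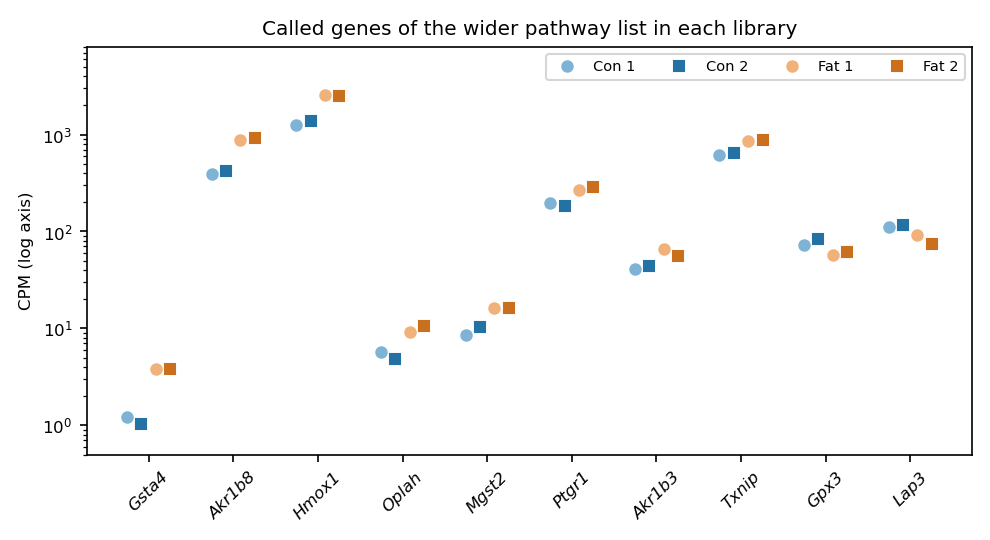
CPM (vertical log axis) of the 10 called genes of the wider pathway list in each of the 4 libraries, ordered by log2 fold change, with blue for Con and orange for Fat. Both Fat libraries lie above both Con libraries for the 8 genes on the left, from Gsta4 (3.78 and 3.78 against 1.21 and 1.04 CPM) to Txnip, and below them for Gpx3 and Lap3. These genes were chosen by the test on the same libraries.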

How the data were processed

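Per the study's methods, libraries were sequenced as single reads of 75 bases. The authors deposited CPM values, which are reads scaled to the library total with a further factor of 0.990 to 1.01 per library, and TPM values, which are also scaled for gene length. The processing notes name GRCm39, and the aligner, counter, strand setting and annotation are not given in the sources used here. Dividing the CPM values by the value of 1 read gave whole numbers (within 0.01) for 100% of values, and these reads were recovered. Samples were grouped by title. The Fat and Con libraries were compared with limma 3.58.1 in R 4.3.3, two-sided, with a mean-variance trend, on log2(CPM + 0.1) of the 12470 genes that reached 0.5 CPM in 2 or more libraries. An exact permutation test for 1 gene could not go below p = 0.333 with 2 libraries per medium. Members and lists were chosen with earlier results of these data known, so a list gets counts and a median and no test. All 41 members are described, as are the genes of the wider list with an adjusted p under 0.05. The mitochondrial and selenoprotein groups, and genes of the wider list named without being called, were chosen after values were seen.

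Shared sequence was found by aligning stretches of 75 bases, every 5 bases, of GENCODE vM21 transcripts (build GRCm38) with BWA 0.7.19, allowing 2 mismatches. Alternatives used edgeR 4.0.16 and DESeq2 1.42.0 on the recovered reads, other filters, scalings and pseudocounts, the TPM values, a replicate block and each library left out. Tests were checked on simulated counts in which 200 genes changed by 1 on the log2 scale. The log2 fold changes of the 41 genes ran from -0.57 to 0.73, so recovery in these counts does not cover changes of their size. In the simulated counts limma with the trend recovered 99.5% of the 200 and made 29 false calls. Without the trend it recovered 93.5% and made 6. In the same counts edgeR made 30 false calls and DESeq2 15. Figures were made with Python 3.11.15 and matplotlib 3.10.9.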

Additional observations from a re-analysis of the deposited data

How the results depend on the processing

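All 12 called genes kept their direction under each of the 13 alternatives run, and 12 kept an adjusted p under 0.05 with a pseudocount of 1 CPM and with DESeq2. DESeq2 called 10 genes of the list higher and 4 lower, and 460 and 600 of all genes. With no filter, with a mean of at least 5 CPM or with the TPM values, 5 were called higher in each case, and the 4 lower stayed. With no filter, 422 of all 17013 genes were called higher and 533 lower. With a mean of at least 5 CPM, 408 of 9760 genes were called higher and 519 lower. After median ratio rescaling and by edgeR, 6 were called higher and 4 lower, where 484 and 677 of all genes were called after rescaling and 490 and 648 by edgeR. Without the mean-variance trend limma called 0 and 0 of the list, and 19 and 12 of all genes, against 498 and 624. With TPM 425 of all genes were called higher and 366 lower. Leaving out 1 library, with the lone library of that medium assumed to vary like the other medium's, gave 2 to 6 genes of the list higher and 3 to 4 lower, 216 to 519 and 313 to 612 of all genes, and a median of the list between -0.00116 and 0.11, the lowest in each case without Fat replicate 2. Without Con replicate 1, 332 and 334 of all genes were called. The cause was not tested.

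The replicate numbers of the titles share no stated animal or day. Deviations of same-numbered libraries from their group means had a correlation of 0.20 over 12470 genes and 0.34 over the 9760 with a mean of at least 5 CPM. With the number as a replicate block, 11 genes of the list were called higher and 7 lower, and 1278 and 1242 of all genes (10.2% and 9.96% of those tested). All 12 calls were kept, and Nfe2l2, Mgst1 and Txn2 were added as lower and Osgin1, Gclm and Abcc1 as higher. With 2 libraries per medium, differences as small as that of Nqo1 were not resolved.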

Other observations

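The genes that supply NADPH, the electron source of both glutathione reductase and thioredoxin reductase, were measured in the same libraries. Of 11 such genes tested, limma called 0, with log2 fold changes of -0.23 to 0.16, and 3 had an unadjusted p under 0.05, while edgeR called 0 and DESeq2 called 1. Limma called 9.0% of all genes tested, and with 11 genes a count of 0 is near that share. The first enzyme of the pentose phosphate pathway, G6pdx, was at 356 and 359 CPM in the Con libraries and 378 and 350.0 CPM in the Fat libraries, with overlapping libraries (log2 change 0.03, limma adjusted p = 0.84). Nadk, the cytosolic kinase that makes NADP, had both Fat libraries below both Con libraries, at 226 and 203 CPM in the Con libraries and 182 and 181 CPM in the Fat libraries (log2 change -0.23, limma adjusted p = 0.0707). Of the 11 genes, 4 had Fat above Con, 2 had Fat below and 5 overlapped, with a median log2 fold change of 0.03. Among all tested genes, 55.6% did not overlap. Idh1 was among those with Fat above (log2 change 0.16, limma adjusted p = 0.152).

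Txnrd1, Txnrd2, Gpx1 and Gpx4 are selenoproteins, and limma and edgeR called 0 of these 4, with 1 at an unadjusted limma p under 0.05 and a median log2 fold change of 0.08. Of 6 genes of selenoprotein synthesis, limma called 0, with log2 fold changes of -0.20 to 0.16, 0 had an unadjusted p under 0.05, and edgeR called 0. Of 5 members placed mainly in mitochondria, Sod2, Prdx3, Txn2, Txnrd2 and Glrx2, limma and edgeR called 1 lower (Sod2) and 0 higher, with 0 higher at an unadjusted limma p under 0.05 and a median log2 fold change of -0.04. The selenoprotein and mitochondrial groups of members were formed after their values were seen. Limma called 9.0% of all genes tested, and counts in groups of 4 to 6 genes cannot be told from that share.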
